A study of Mus musculus with 24 samples.

Results

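Kupffer cells are the macrophages that live in the liver sinusoids, and 10 genes that mark them or macrophages in general were followed across 24 mouse liver RNA libraries. The genes were taken by their exact symbols as Clec4f, Cd5l, Vsig4, Marco, Csf1r, C1qa, C1qb, C1qc, Timd4 and Cd68, and each symbol matched 1 locus among the 23732 loci used. All 10 were measured in all 24 libraries and passed the filter on low values (FPKM of at least 1 in at least 3 libraries) in every main fit. FPKM divides a gene's fragments by its transcript length and by the library's mapped total, so levels can be compared between genes.

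Livers came from C57BL/6 mice in 8 groups of 3 libraries, which all carried floxed Foxo1 alleles or the deletion made from them. In the acute model, floxed mice received AAV8.TBG.Cre (Cre) or AAV8.TBG.eGFP (GFP), viruses whose TBG promoter is active in hepatocytes, and livers were taken on day 21. In the constitutive model, FoxO1-/- mice made with an Albumin-cre transgene (KO) were set against FoxO1lox/lox mice with no Cre and no virus (WT). Each of these 4 arms, called genotypes below, was taken after a 4 h fast followed by 1 h of refeeding, or after the 4 h fast alone. They are not 4 genetic backgrounds: Cre and GFP mice differed by virus, and GFP and WT mice both carried undeleted floxed alleles. Both promoters act in hepatocytes, so the deletion was not aimed at macrophages. Age and sex of the mice are not given in the sources used here, and nothing in the labels says whether each library is its own animal. The p-values therefore reflect the scatter of these libraries, part of which may be technical.

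As background, Kupffer cells filter blood from the gut, take up microbes, dying cells and old erythrocytes, and are seeded before birth and held in place by signals from neighbouring endothelial, stellate and hepatic cells. Their survival depends on CSF1R, the receptor that CSF1 and IL-34 share. They secrete much of the body's C1q, the recognition molecule of the classical complement pathway, which is assembled from A, B and C chains and carries the proteases C1r and C1s. The macrophage factor PU.1 is known to switch on many such genes, while FoxO1 is a transcription factor that insulin excludes from the nucleus after a meal.

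Hepatocyte markers checked the tissue: their 8 genes summed to 48191 to 69754 FPKM, and none was at 0 in any library. Foxo1 checked the labels, at 0.212 to 0.571 FPKM over the 6 Cre libraries and 4.33 to 6.81 FPKM over the 6 GFP libraries. It was at 0.341 to 0.494 FPKM over the 6 KO libraries and 4.21 to 6.79 FPKM over the 6 WT libraries. The authors' confidence limits imply 6280000 to 15700000 fragments per library. Each acute group held 1 deeper library (Cre refed 1, GFP refed 3, Cre fasted 1 and GFP fasted 3, at 12860000 to 15700000), while 8 shallower acute libraries had 6280000 to 7630000. In the constitutive model the range was 12040000 to 13810000. Markers of B cells, T and NK cells and neutrophils were low. Summed levels were 0.471 to 3.96 FPKM for 5 B cell genes and 0.872 to 3.93 FPKM for 11 T and NK cell genes. For 9 neutrophil genes they were 1.56 to 28.7 FPKM. Dendritic cell and MHC class II genes were not low, as 10 of them summed to 29.6 to 145.2 FPKM. Nor were those of red blood cells, as 3 erythroid genes summed to 12.7 to 95.7 FPKM in acute and 88.7 to 208.7 FPKM in constitutive livers.

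Promoter sequences are shown for 4 of the markers, all taken from the 6 that hold the letters a macrophage factor recognises. Any link between these letters and the levels of the markers was not tested. RefSeq (GRCm38.p6, the mm10 assembly) gave 300 bases for 8 of the 10 genes, from 250 bases before to 50 bases after the annotated start, and C1qa and Csf1r are named only. Each line runs 5′ to 3′ on the gene's own strand. Capitals mark GAGGAA, the core that PU.1 binds, on either strand, so that TTCCTC is the same motif read from the other strand. The promoters are those of C1qb (chr4:136886151-136886450, minus strand) and C1qc (chr4:136892865-136893164, minus strand), which lie in a cluster of 18700 bases with C1qa, of Cd5l (chr3:87357631-87357930, plus strand) and of Marco (chr1:120504975-120505274, minus strand), the marker that varied apart from the rest in the constitutive livers.
C1qb: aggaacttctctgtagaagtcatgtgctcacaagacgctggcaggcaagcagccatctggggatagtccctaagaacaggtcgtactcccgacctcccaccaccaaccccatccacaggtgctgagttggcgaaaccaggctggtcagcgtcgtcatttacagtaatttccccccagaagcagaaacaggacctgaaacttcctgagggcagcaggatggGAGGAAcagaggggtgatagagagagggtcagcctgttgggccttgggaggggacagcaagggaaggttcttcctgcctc
C1qc: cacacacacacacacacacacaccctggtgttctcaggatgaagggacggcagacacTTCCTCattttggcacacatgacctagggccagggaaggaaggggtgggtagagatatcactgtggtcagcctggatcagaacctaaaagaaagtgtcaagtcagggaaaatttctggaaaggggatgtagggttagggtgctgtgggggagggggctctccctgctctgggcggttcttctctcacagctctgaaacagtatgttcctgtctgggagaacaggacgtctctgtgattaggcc
Cd5l: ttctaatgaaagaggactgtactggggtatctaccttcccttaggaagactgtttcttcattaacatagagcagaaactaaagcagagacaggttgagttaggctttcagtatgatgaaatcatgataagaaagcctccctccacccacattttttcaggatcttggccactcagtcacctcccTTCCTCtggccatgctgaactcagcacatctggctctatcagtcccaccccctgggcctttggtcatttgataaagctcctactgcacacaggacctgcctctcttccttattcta
Marco: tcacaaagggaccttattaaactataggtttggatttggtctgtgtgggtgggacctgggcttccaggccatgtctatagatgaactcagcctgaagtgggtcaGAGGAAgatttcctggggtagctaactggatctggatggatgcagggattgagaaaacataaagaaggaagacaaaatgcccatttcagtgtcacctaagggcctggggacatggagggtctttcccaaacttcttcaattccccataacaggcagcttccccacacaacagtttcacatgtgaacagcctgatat

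GAGGAA or its reverse complement occurred in 6 of the 8 promoters (Cd5l, Vsig4, Marco, C1qb, C1qc and Cd68) and in 28.3% of all 32851 RefSeq promoters of that length. No such match was found in the windows of Clec4f and Timd4. The match began 30 bases before the start in C1qb, 66 bases before it in Cd5l, 146 bases before it in Marco and 193 bases before it in C1qc. The FoxO letters GTAAACA were found in none of the 8 windows on either strand, against 3.6% of all promoters. These are matches of letters in 300 bases, with no measure of binding. The annotated start lay 23 bases from the 5′ end that the files give for C1qb, 60 bases for Marco and 108 bases for Cd68, and at that end for the other 5.

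The C1q chains were the most abundant of the markers and stood at nearly equal levels. Averaged over 24 libraries, C1qc (chromosome 4, 136889802 to 136892914, mm10) was at 26.5, C1qb (136880145 to 136886177) at 24.7 and C1qa (136895916 to 136898844) at 24.6 FPKM. Clec4f, a C-type lectin that in mice is found on Kupffer cells and few other cells (chromosome 6, 83644542 to 83656116), averaged 22.0 FPKM. Cd5l, a secreted scavenger protein that macrophages release into blood (chromosome 3, 87357881 to 87371074), averaged 19.7 FPKM. Vsig4, a complement receptor for C3 fragments (chromosome X, 96247203 to 96293438), averaged 8.87 FPKM, and Csf1r (chromosome 18, 61105572 to 61131139) averaged 5.83 FPKM. The lowest were Cd68, a glycoprotein of macrophage lysosomes (chromosome 11, 69664371 to 69666062), at 2.93 FPKM, Marco, a scavenger receptor that binds bacteria (chromosome 1, 120474538 to 120505084), at 2.41 FPKM, and Timd4, a receptor for phosphatidylserine on dying cells (chromosome 11, 46810799 to 46844333), at 1.32 FPKM. Marco, Timd4 and Cd68 rested on as few as 7 fragments in a library, and on fewer than 30 in 7, 9 and 10 libraries. The other 7 markers rested on 36.2 to 1974 fragments. Of genes annotated in GENCODE vM21, 1 overlapped a marker, the microRNA gene Mir6983 within Csf1r.

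Clec4f shows how the libraries of 1 group differed. It was at 42.1, 22.0 and 6.28 FPKM in Cre refed livers, 10.9, 26.7 and 25.4 FPKM in GFP refed livers, 16.9, 9.46 and 8.70 FPKM in Cre fasted livers and 10.6, 7.35 and 13.1 FPKM in GFP fasted livers. In the constitutive model it was at 26.2, 38.9 and 28.7 FPKM in KO refed livers, 25.1, 28.0 and 32.4 FPKM in WT refed livers, 33.0, 25.5 and 24.8 FPKM in KO fasted livers and 13.9, 26.4 and 25.8 FPKM in WT fasted livers. Its highest and its lowest value of all 24 thus fell in the same group, the Cre refed livers.

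Csf1r was likewise highest in Cre refed 1, and its lowest value was in GFP fasted 2. It was at 12.5, 7.03 and 2.41 FPKM in Cre refed livers, 2.26, 6.03 and 6.45 FPKM in GFP refed livers, 3.28, 2.19 and 2.07 FPKM in Cre fasted livers and 2.56, 1.48 and 3.41 FPKM in GFP fasted livers. It was at 6.98, 9.15 and 7.35 FPKM in KO refed livers, 9.11, 6.98 and 7.62 FPKM in WT refed livers, 10.8, 6.42 and 6.84 FPKM in KO fasted livers and 3.60, 6.14 and 7.22 FPKM in WT fasted livers. The first WT fasted library was the low one of its group for both genes.

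C1qb had both its highest and its lowest value in the Cre refed livers, as Clec4f did. It was at 48.6, 27.4 and 8.76 FPKM in Cre refed livers, 16.6, 28.2 and 28.5 FPKM in GFP refed livers, 17.4, 9.30 and 11.3 FPKM in Cre fasted livers and 12.5, 10.4 and 13.8 FPKM in GFP fasted livers. It was at 30.5, 40.7 and 31.6 FPKM in KO refed livers, 33.2, 31.8 and 34.9 FPKM in WT refed livers, 39.0, 27.4 and 26.7 FPKM in KO fasted livers and 15.6, 24.1 and 25.3 FPKM in WT fasted livers. The WT refed libraries lay close together and above all 3 WT fasted ones.

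Marco had the widest range. It was at 12.9, 1.61 and 0.388 FPKM in Cre refed livers, 2.07, 4.83 and 3.82 FPKM in GFP refed livers, 0.745, 0.638 and 1.29 FPKM in Cre fasted livers and 1.38, 0.906 and 1.14 FPKM in GFP fasted livers. It was at 2.76, 2.09 and 2.23 FPKM in KO refed livers, 3.25, 1.51 and 2.75 FPKM in WT refed livers, 1.57, 2.44 and 1.96 FPKM in KO fasted livers and 1.56, 2.36 and 1.76 FPKM in WT fasted livers. From its lowest to its highest library Marco differed 33.2-fold, against 5.34-fold for Cd5l to 8.44-fold for Csf1r among the other 9. The first Cre refed library held the highest value of 9 of the 10 markers, and C1qa was highest in the second KO refed library, at 48.6 FPKM.

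**Figure D1:**
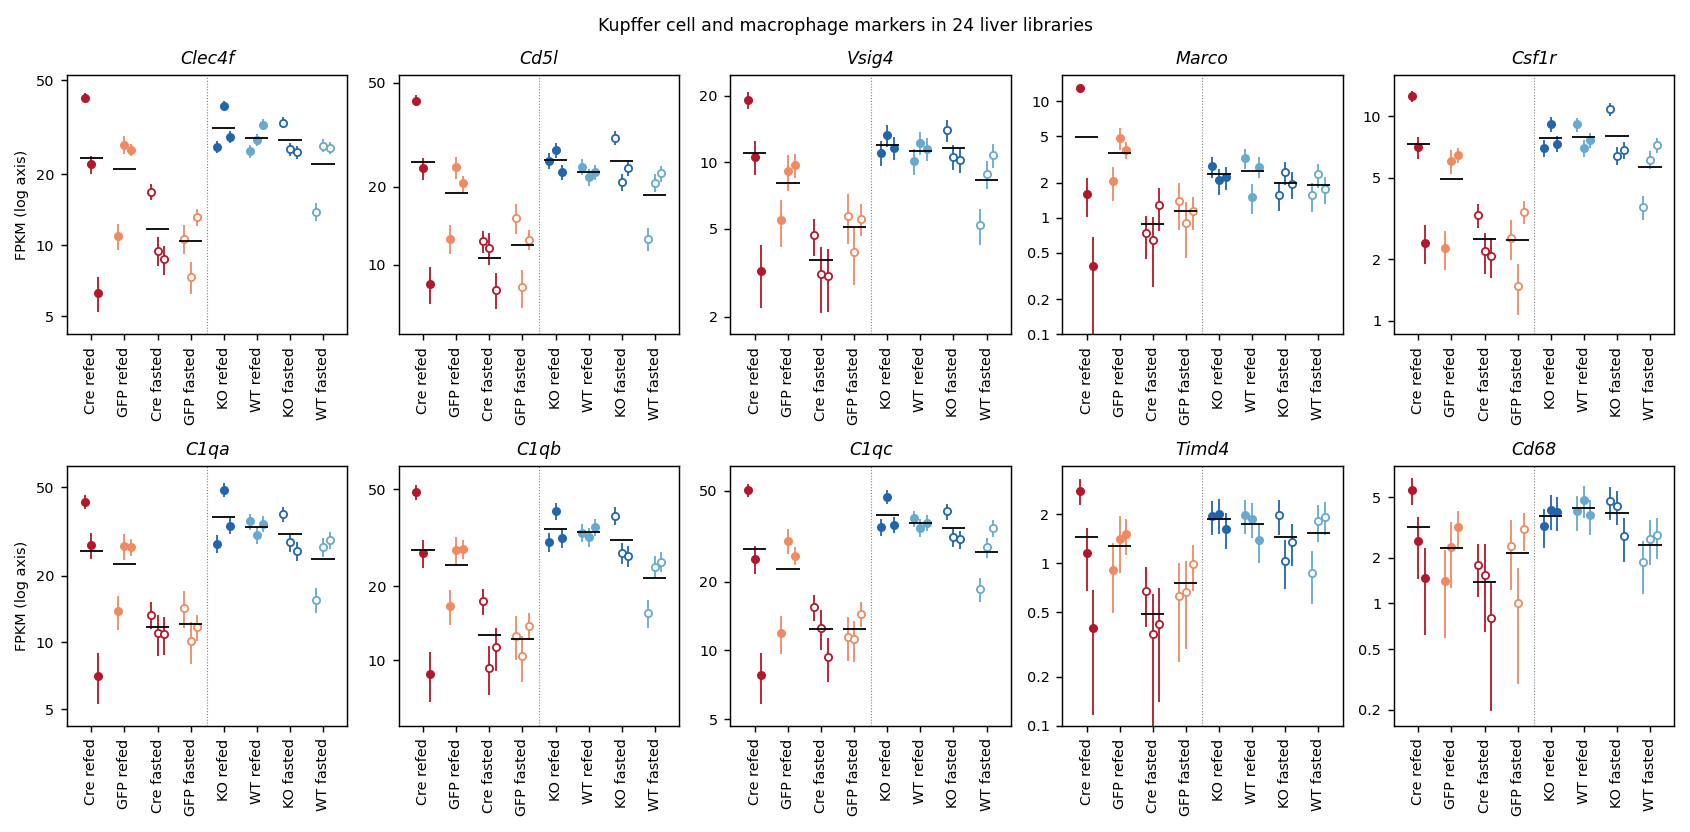
Level of each of the 10 markers in FPKM (log axis) by group, with 1 point per library, filled for refed and open for fasted livers, the authors' confidence limits as vertical bars (cut at the lower edge of a panel) and the group mean as a horizontal line. Cre refed 1 and Cre refed 3 stand at the top and near or at the bottom of most panels, and the constitutive groups to the right of the dotted line vary less.

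Summed over the 10 markers, the libraries fell on both sides of a gap. In the acute model the sums were 279.5, 148.5 and 46.3 FPKM in Cre refed livers, 78.0, 159.7 and 152.1 FPKM in GFP refed livers, 86.5, 61.8 and 55.9 FPKM in Cre fasted livers and 76.7, 55.2 and 79.8 FPKM in GFP fasted livers. In the constitutive model they were 170.3, 233.5 and 178.9 FPKM in KO refed livers, 183.5, 174.0 and 187.4 FPKM in WT refed livers, 214.3, 158.0 and 154.8 FPKM in KO fasted livers and 89.2, 148.1 and 161.2 FPKM in WT fasted livers. No library lay between 89.2 and 148.1 FPKM. Below that gap were all 6 fasted acute libraries, together with Cre refed 3, GFP refed 1 and WT fasted 1. In bulk tissue, fewer cells of a type and less RNA per cell cannot be told apart.

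The order of the groups was set against their spread. By mean sum it ran from KO refed livers (194.2 ± 34.3 FPKM; SD, n = 3 in each group) through WT refed (181.6 ± 6.92), KO fasted (175.7 ± 33.5), Cre refed (158.1 ± 116.9), WT fasted (132.9 ± 38.4), GFP refed (129.9 ± 45.1) and GFP fasted (70.6 ± 13.4) to Cre fasted livers (68.1 ± 16.3). Each of these 7 pairs of neighbours overlapped. The same was true of all 7 neighbouring pairs for 9 of the 10 markers, and for Marco WT fasted livers lay above GFP fasted livers without overlap while its other 6 pairs overlapped. Sorting by mean makes overlap of neighbours likely, and such overlap says nothing of groups farther apart. By sum, all fasted acute libraries (55.2 to 86.5 FPKM) lay below all constitutive libraries (89.2 to 233.5 FPKM).

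The spread between libraries of 1 group was larger for these genes than for most. On the log2(FPKM + 1) scale, the SD within groups was 0.391 (Timd4) to 0.904 (Marco) in the acute model, where the median of 10682 genes was 0.150, and each marker had a larger SD than 94.7% to 98.9% of genes. In the constitutive model it was 0.221 (Cd68) to 0.339 (C1qa), with a median of 0.133 over all genes, and the markers exceeded 86% to 95.7% of them. The authors' confidence limits, which cover counting error, did not span many of these differences. Of 120 pairs of libraries from the same acute group (12 pairs for each marker), the authors' confidence limits stood apart in 61, and in 50 of 120 pairs in the constitutive model. Cd68 in the constitutive model had 0 of 12 pairs apart, so its differences there were within the authors' limits.

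Some lists of other macrophage genes were also low in these libraries, and others were not. In Cre refed 3, where the markers summed to the least (46.3 FPKM), 21 pan-macrophage genes summed to 101.6 FPKM against 167.9 and 287.7 FPKM in the other 2 libraries of the group, and 10 dendritic cell and MHC class II genes to 40.2 FPKM against 78.7 and 105.4 FPKM. In Cre refed 3 the 13 sinusoidal endothelial genes summed to 81.3 FPKM (120.2 and 109.7 FPKM in the other 2), and 10 stellate and fibroblast genes to 139.0 FPKM (171.9 and 159.0 FPKM). The 21 pan-macrophage genes were also lowest of their group in GFP refed 1 (124.8 FPKM, against 209.1 and 174.7 FPKM) and in WT fasted 1 (134.0 FPKM, against 172.5 and 190.2 FPKM). The 17 other Kupffer cell genes summed to the lowest of their group in Cre refed 3 (234.8 FPKM, against 286.8 and 273.3 FPKM), but the highest in GFP refed 1 (263.4 FPKM, against 172.8 and 219.4 FPKM) and in WT fasted 1 (225.8 FPKM, against 181.9 and 225.1 FPKM). That sum is weighted to its most abundant genes, C6, Nr1h3, Slc40a1 and Id3 (means of 46.2, 44.6, 40.2 and 31.7 FPKM). Centred on group means, Pearson's r with the markers' mean over 24 libraries ran from -0.328 (Id3) to 0.956 (Cd163) in that list. The part of depth in this was not tested. Cre refed 3 was a shallower library, Cre refed 1 a deeper one, and WT fasted 1 was as deep as its group. The deeper library was highest of its group for 10 markers in Cre refed and 9 in Cre fasted livers. In GFP livers it was highest for 6 (fasted) and 5 (refed). Cre refed 2 was about as shallow as Cre refed 3 (7130000 and 7000000 implied fragments), with marker sums of 148.5 and 46.3 FPKM.

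**Figure D2:**
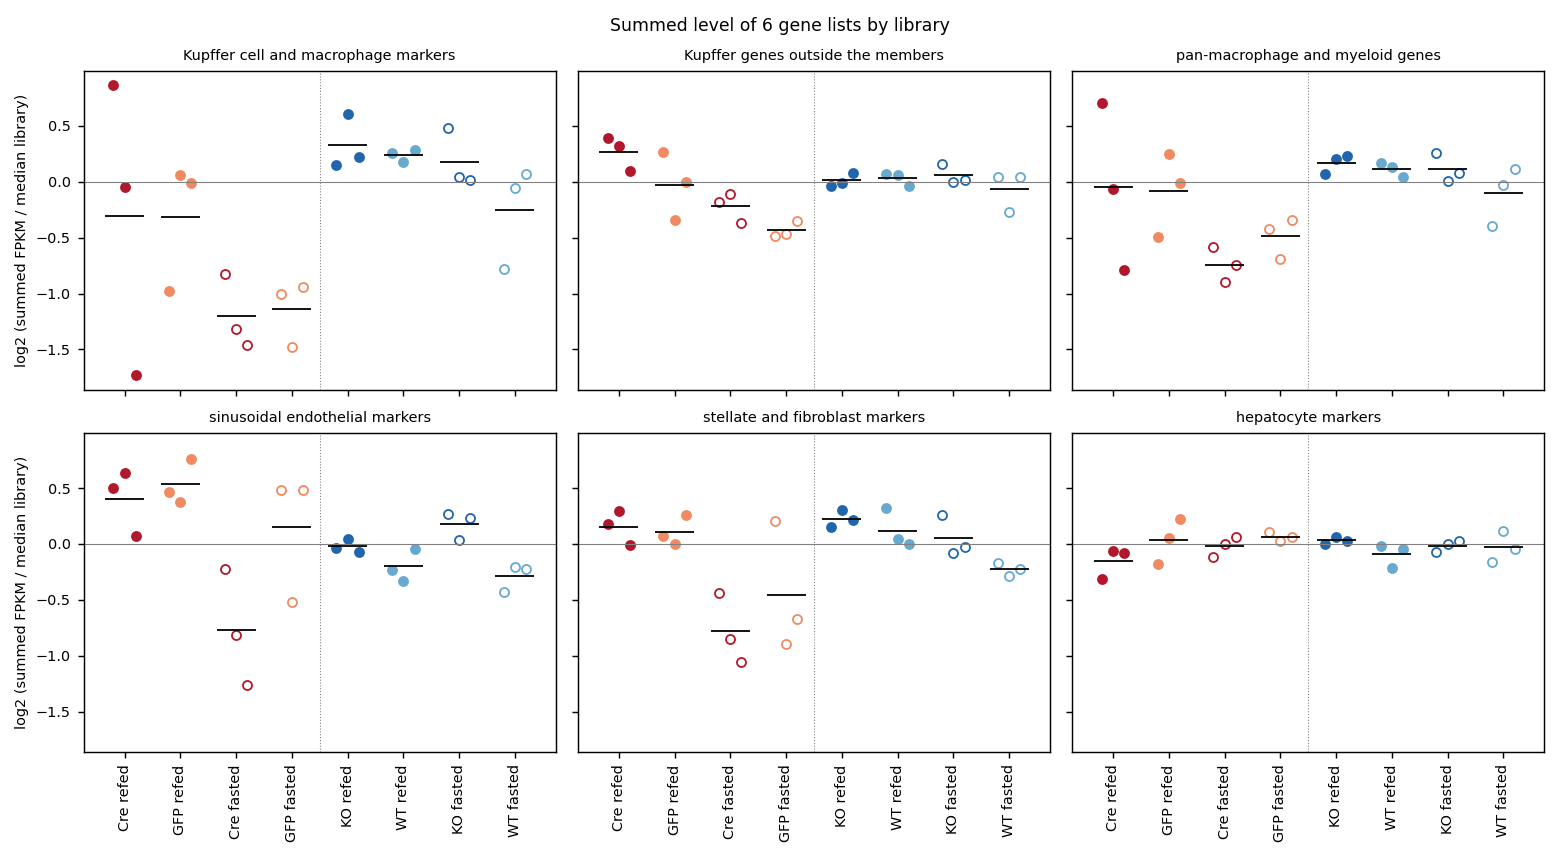
Summed FPKM of 6 gene lists by library, as the log2 ratio to the median library of that list, with 1 point per library, filled for refed and open for fasted livers, and the mean of the log2 values as a line. The 10 markers spread most widely in the Cre refed livers and sat low in all 6 fasted acute libraries, while the 8 hepatocyte markers stayed within a narrow band.

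Within groups the markers went up and down together, apart from Marco in the constitutive model. Correlations were taken over libraries after centring each group on its mean of log2(FPKM + 1). They describe libraries that share depth and tissue, and carry no p-value. Over all 24 libraries the 45 pairs of markers had Pearson's r of 0.612 to 0.973 with a median of 0.903, and the median was 0.792 (0.116 to 0.943) when Cre refed 1 and Cre refed 3 were left out. In the acute model the median was 0.935 (12 libraries), and in the constitutive model 0.813 (12 libraries). Marco had a median r of 0.843 with the other 9 in the acute model and -0.03 in the constitutive model. Without Cre refed 1 and Cre refed 3, its median over both models was 0.333, against 0.738 with them. By ranks (Spearman's rho), Marco had 0.58 to 0.70 with the other 9 in the acute model and 0.22 to 0.37 over all 24 libraries. In the constitutive model Marco rested on 49.3 to 109 fragments a library and had an SD of 0.257, while Cd68 (26.9 to 71.5 fragments, SD 0.221) and Timd4 (31 to 75.1 fragments, SD 0.247) had median r of 0.632 and 0.796.

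**Figure D3:**
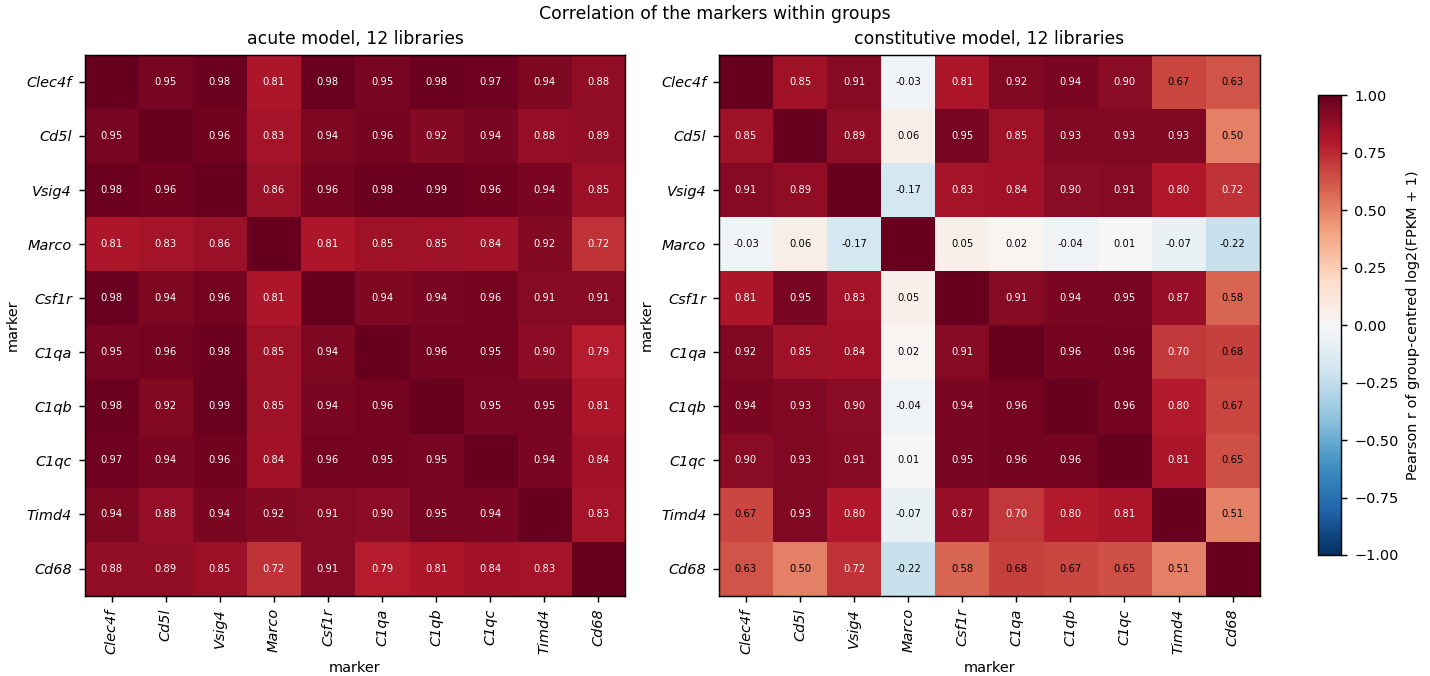
Pearson's r between the 10 markers over the 12 libraries of each model, from log2(FPKM + 1) centred on group means. In the acute model all pairs were above 0.7, and in the constitutive model Marco had r between -0.22 and 0.06 with the other 9.

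The ratios between markers were steadier than their levels. The ratio of C1qa to C1qb was 0.765 to 1.19 over 24 libraries, a 1.56-fold range, while C1qb itself differed 5.55-fold. The ratio of C1qa to C1qc was 0.806 to 1.25 with a median of 0.908. Clec4f to C1qb spanned 0.655 to 1.09 (1.67-fold), Vsig4 to C1qb 1.71-fold, C1qc to C1qb 1.90-fold and Cd5l to C1qb 1.92-fold. The ratio of Marco to C1qb spanned 6.57-fold, highest in Cre refed 1 at 0.265 and lowest in KO fasted 1 at 0.0403. Cd68 to C1qb spanned 3.12-fold, highest in GFP fasted 3, where Cd68 was at 3.07 FPKM.

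**Figure D4:**
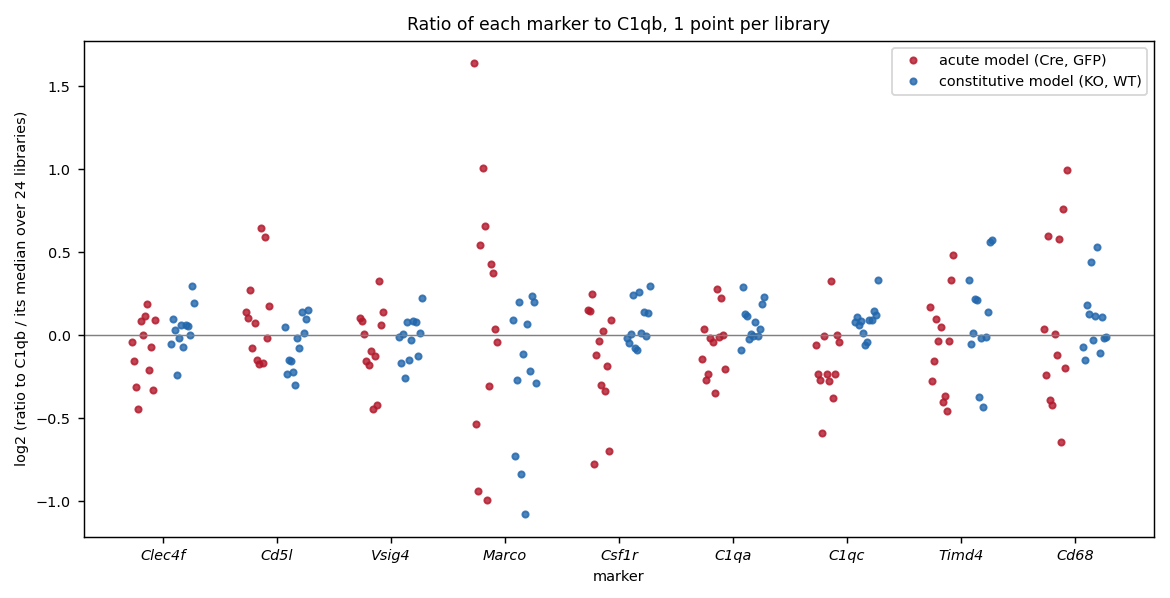
Ratio of 9 markers to C1qb in each library, as the log2 difference from that ratio's median over 24 libraries, with 1 point per library. C1qa and Clec4f stayed closest to C1qb, and Marco was the farthest from it in both directions.

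Beyond the 10, the genes whose pattern was most like theirs over all 24 libraries were mostly genes known from macrophages, and within the constitutive model they were more mixed. Likeness was Pearson's r over 24 libraries between a gene's group-centred log2(FPKM + 1) and the mean of the standardised markers, searched over 10072 genes with a mean FPKM of at least 1. The 10 closest were Cfp, which encodes properdin of the alternative complement pathway (r = 0.961), Cd163, the receptor for haemoglobin bound to haptoglobin (0.956), Sdc3 (0.938), Emr1, now Adgre1, the F4/80 antigen (0.924), Ly86 (0.924), the lysosomal protease gene Lgmn (0.924), the Fc receptor gene Fcgr3 (0.918), the lysozyme gene Lyz2 (0.917), the cathepsin gene Ctss (0.912) and Lilrb4 (0.912). Over the 12 acute libraries the closest 5 were Cd163 (0.986), Cfp (0.976), Emr1 (0.966), Laptm5 (0.965) and Rdbp (0.959), and over the 12 constitutive libraries they were Gm11428 (0.944), Tyrobp (0.927), Marcks (0.922), Dnajb9 (0.919) and Lilrb4 (0.917), named by model after their values were seen. Of the 10 closest genes, 5 in the acute model and 1 in the constitutive model were on the other Kupffer cell or pan-macrophage lists, against 7 over all 24 libraries. By list over all 24 libraries, the median r was 0.716 for 16 other Kupffer cell genes, 0.81 for 21 pan-macrophage genes, 0.742 for 5 dendritic cell and MHC class II genes, 0.472 for 13 sinusoidal endothelial genes, 0.274 for 10 stellate genes and -0.03 for 8 hepatocyte genes, beside 0.003 over all genes. The 10 markers themselves, which make up that mean, had r from 0.80 (Marco) to 0.981 (Vsig4).

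Refed and fasted livers were compared to ask what 1 h of food changed. Averaged over the 4 genotypes, 5 of the 10 markers were called higher in refed livers by limma with Benjamini-Hochberg adjustment over 10682 genes. They were C1qb (log2 change 0.64 ± 0.19, SE; adjusted p = 0.0168), C1qa (0.58 ± 0.21; 0.038), Csf1r (0.55 ± 0.19; 0.0341), Vsig4 (0.55 ± 0.18; 0.0292) and Timd4 (0.33 ± 0.12; 0.0473). The other 5 were also above 0, at 0.35 to 0.61 with adjusted p from 0.0598 (C1qc) to 0.0831 (Clec4f). Of all genes 30.3% were called in this comparison and 60.3% were above 0. The median log2 change was 0.54 over the 10 markers and 0.04 over all genes.

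The calls depended on single libraries and on the model. Without Cre refed 3 or without GFP refed 1, the refed libraries with the lowest sums, all 10 markers were called, with Marco at the edge of the threshold without GFP refed 1 (adjusted p = 0.04996). Without WT fasted 1 or GFP fasted 2 only C1qb was. Leaving out Cre refed 2, GFP refed 2, GFP refed 3, Cre fasted 2, Cre fasted 3, KO refed 2, WT refed 1, KO fasted 2 or KO fasted 3 left 2 called, while without Cre refed 1 the 3 called were C1qb, Vsig4 and Marco, which was not called with all libraries. At the threshold of 0.05, C1qb was called in 32 of 33 alternatives and Vsig4 in 28, against 16 for Csf1r and 12 each for C1qa and Timd4. The stricter threshold of 0.01 is not among these 33. At 0.01 none of the 10 was called with all libraries, as the lowest adjusted p by limma was 0.0168 (C1qb). Within the acute model 6 markers were called (log2 changes 0.41 to 1.01 over the 10; 26% of all genes called) and within the constitutive model 0, none of them with an unadjusted p below 0.05 (0.17 to 0.39; 13.5% of all genes), splits that were chosen after seeing the data. The difference between the models was 0.13 to 0.80 with adjusted p from 0.323 to 0.831, so none of the 10 was shown to differ. These fits share 1 estimate of the spread over both models, while the spread was larger in the acute one. Without the 4 deeper acute libraries 1 marker was called, at a median log2 change of 0.43.

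Taken genotype by genotype, no marker was called in refed against fasted livers. In Cre livers the markers were 2.01-fold (Clec4f) to 5.56-fold (Marco) higher when refed as ratios of means, with log2 changes of 0.60 to 1.12, 0 of 10 called and 2 with an unadjusted p below 0.05. Of all genes in that comparison 5.44% were called and 24% had an unadjusted p below 0.05. The 3 refed values spanned the 3 fasted ones for the C1q genes, Clec4f and Marco. The log2 change of Marco was 0.98 with all libraries and 0.02 without Cre refed 1. Without Cre refed 3, 6 markers were called (median log2 change 1.49), and without Cre refed 1 the median was 0.29 with 0 called. In GFP livers the ratios were 1.08-fold (Cd68) to 3.13-fold (Marco), 0 of 10 were called and none had an unadjusted p below 0.05, where 6.56% of genes were called. Marco (3.57 ± 1.40 against 1.14 ± 0.238 FPKM; SD, n = 3 each) and C1qb (24.4 ± 6.75 against 12.2 ± 1.75 FPKM) were above their fasted values in all 3 refed GFP libraries, as were 19.9% of all genes.

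In WT livers the C1q chains and Cd68 separated by state, without passing the test. C1qb was at 33.3 ± 1.58 against 21.7 ± 5.31 FPKM (1.54-fold), C1qa at 33.3 ± 2.43 against 23.8 ± 7.15 FPKM, C1qc at 36.2 ± 1.68 against 27.0 ± 7.96 FPKM and Cd68 at 4.22 ± 0.525 against 2.44 ± 0.50 FPKM in refed and fasted WT livers (SD, n = 3 each). For these 4 all refed WT libraries lay above all fasted ones, as for 10.2% of all genes. None of the 10 passed the test (lowest adjusted p = 0.115 for Cd68, 4 with an unadjusted p below 0.05), where 0.318% of all genes were called and 15.6% had an unadjusted p below 0.05. Without WT fasted 1 the median log2 change of the 10 was 0.20, against 0.45 with it. In KO livers the log2 changes lay between -0.04 (Cd68) and 0.24 (Timd4), 0 of 10 were called and none had an unadjusted p below 0.05, where 5.68% of genes were called.

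**Figure D5:**
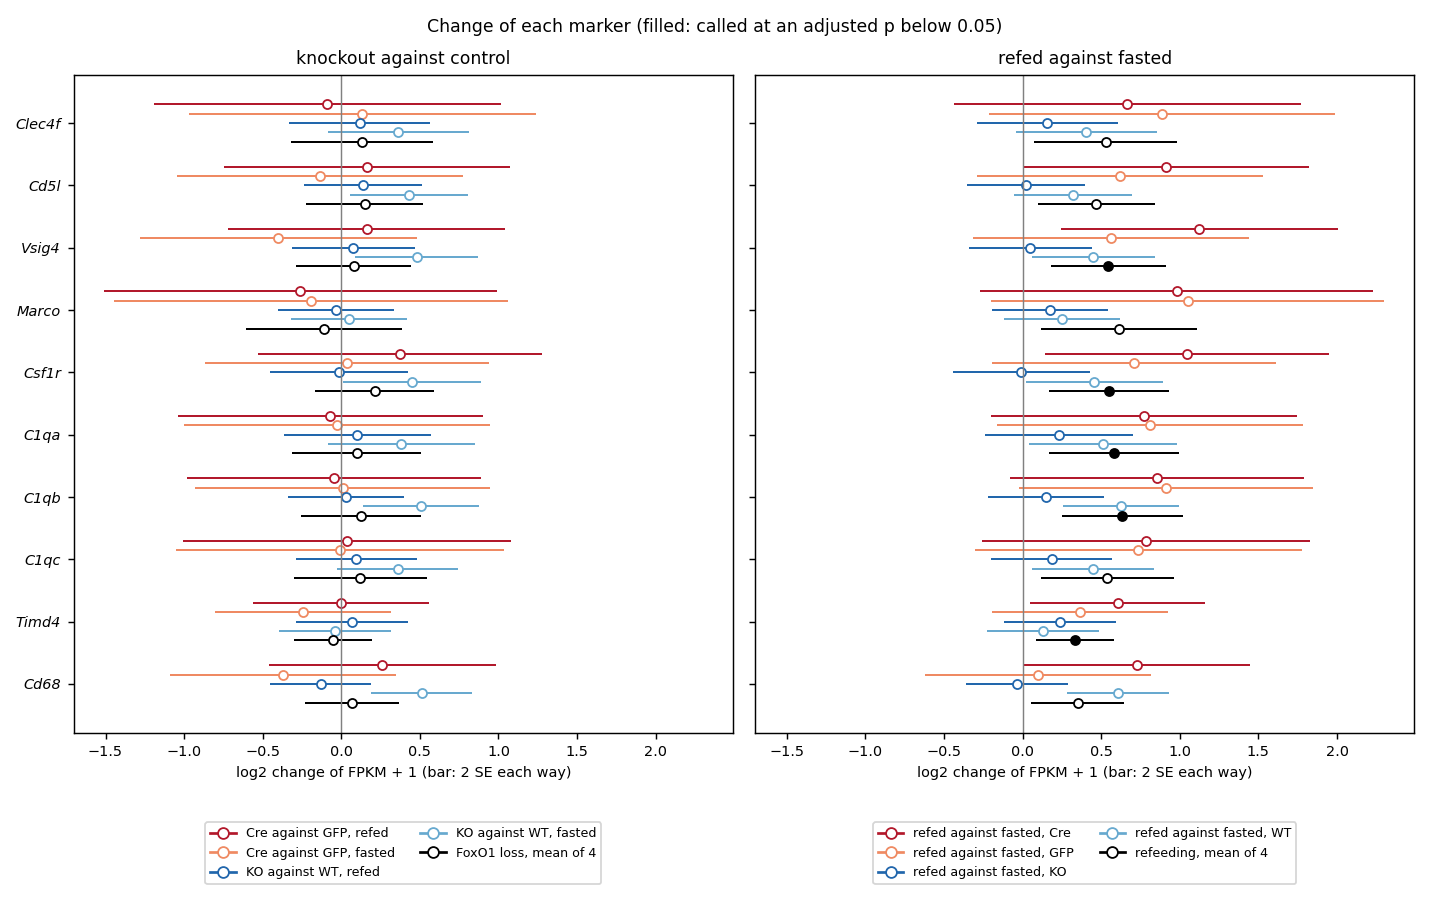
Log2 change of each marker on the log2(FPKM + 1) scale with 2 SE each way, for knockout against control on the left and refed against fasted on the right, filled where the adjusted p was below 0.05. All 10 means over the 4 refeeding comparisons were above 0 and 5 were called, while none of the knockout comparisons held a call.

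Livers with and without the deletion were set side by side to ask whether loss of FoxO1 in hepatocytes went with a change of the macrophage genes. Averaged over both models and both states, 0 of 10 markers were called by limma and none had an unadjusted p below 0.05, with log2 changes of -0.11 ± 0.25 (Marco) to 0.21 ± 0.19 (Csf1r) (SE), where 3.14% of genes were called. The interval of 2 SE ran from -0.26 to 0.51 for C1qb and from -0.32 to 0.58 for Clec4f, so a change of that size lies within these intervals. The median log2 change was 0.11 over the 10 markers and 0.00 over all genes.

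In acute livers the groups overlapped for every marker. In refed livers 0 of 10 were called in Cre against GFP, none had an unadjusted p below 0.05 and the lowest adjusted p was 0.881, where 0.105% of genes were called. C1qc was at 27.7 ± 21.3 against 22.7 ± 9.58 FPKM and C1qb at 28.3 ± 19.9 against 24.4 ± 6.75 FPKM in Cre and GFP livers (SD, n = 3 each). In fasted livers 0 of 10 were called, none had an unadjusted p below 0.05 and the lowest adjusted p was 0.746, where 0.297% of genes were called. C1qb was at 12.7 ± 4.24 against 12.2 ± 1.75 FPKM and C1qa at 11.7 ± 1.38 against 12.1 ± 2.10 FPKM in fasted Cre and GFP livers. The SE of these log2 changes was 0.28 (Timd4) to 0.63 (Marco), and the interval of 2 SE ran from -0.97 to 1.24 for Clec4f in fasted livers.

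In constitutive fasted livers 9 of 10 markers were above 0 in KO against WT, as were 55.6% of all genes, but none was called. Cd68 was at 3.95 ± 1.04 against 2.44 ± 0.50 FPKM in KO and WT livers (log2 change 0.51 ± 0.16, adjusted p = 0.488), with values of 4.69, 4.40 and 2.76 FPKM against 1.87, 2.65 and 2.80 FPKM. C1qb was at 31.0 ± 6.89 against 21.7 ± 5.31 FPKM (0.51 ± 0.19, adjusted p = 0.619), and was the 1 marker whose KO libraries all lay above the WT ones, as did 7.52% of all genes. In this comparison 4 of 10 had an unadjusted p below 0.05, as did 6.56% of all genes, and 0.0964% of all genes were called. The median log2 change of the 10 was 0.41, and 0.15 without WT fasted 1, the WT library that was lowest for all 10 markers of its group. Beside them, all 13 sinusoidal endothelial genes (median 0.34) and all 10 stellate and fibroblast genes (median 0.22) were above 0 with 0 called, and their part in the difference was not tested. In refed livers the markers lay between -0.13 (Cd68) and 0.14 (Cd5l) in KO against WT, with 0 of 10 called, none with an unadjusted p below 0.05 and 0.0289% of genes called.

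The effect of refeeding was not shown to depend on FoxO1, nor the effect of FoxO1 loss on the model. For the interaction of deletion and refeeding, 0 of 10 were called in acute livers, where 0.0287% of genes were, with log2 values of -0.22 (Clec4f) to 0.63 (Cd68), SE of 0.40 to 0.89 and none with an unadjusted p below 0.05. In constitutive livers the values lay between -0.64 (Cd68; adjusted p = 0.963, unadjusted 0.0157) and 0.11 (Timd4), with 0 of 10 and 0% of genes called, while 1 of 10 and 4.4% of all genes had an unadjusted p below 0.05. The effect of deletion in the acute minus that in the constitutive model was -0.88 (Cd68) to -0.20 (Timd4) in fasted livers and -0.23 (Marco) to 0.39 (Cd68) in refed livers, again with 0 of 10 and 0% of genes called in each state, and 1 of 10 (fasted, where 7.85% of all genes did) and 0 of 10 (refed) had an unadjusted p below 0.05.

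The controls of both models differed in the level of the markers, though not past the test. In fasted livers GFP controls were at 0.44 (Csf1r) to 0.88 (Cd68) of the WT mean. C1qc was at 12.4 ± 1.82 against 27.0 ± 7.96 FPKM (log2 change -1.03 ± 0.42, adjusted p = 0.361) and Csf1r at 2.48 ± 0.968 against 5.65 ± 1.86 FPKM (-0.93 ± 0.38, 0.361) in GFP and WT livers. For 6 of 10 markers (Clec4f, Marco, Csf1r, C1qa, C1qb and C1qc) all GFP libraries lay below all WT ones, as did 6.75% of all genes. None was called, where 0.103% of all genes were, and 4 had an unadjusted p below 0.05, as did 11.7% of all genes. In refed livers 6 of 10 (Vsig4, Csf1r, C1qa, C1qb, C1qc and Cd68) lay below WT without overlap, as did 4.04% of all genes, with 0 of 10 called, where 0.946% of all genes were, and 1 with an unadjusted p below 0.05, as for 18.8% of all genes. Marco alone was higher in the refed GFP mean, at 3.57 ± 1.40 against 2.50 ± 0.893 FPKM. These comparisons use the same control libraries as those of deletion and of refeeding above. Virus, depth and cohort differ together between these controls and cannot be told apart. Sinusoidal endothelial genes stood on the other side, 13 of 13 above 0 in GFP against WT in both states (median log2 0.48 refed and 0.27 fasted) with 0 called. Of all genes 68.4% were above 0 in refed and 52.9% in fasted livers (medians of 0.08 and 0.01). In fasted livers mean sums were lower in GFP than WT, as for the markers, for erythroid (40.8 against 144.1 FPKM) and dendritic cell genes (42.4 against 83.7 FPKM). The same held for the pan-macrophage, other Kupffer cell, B cell, T and NK cell, neutrophil and stellate lists. Monocyte, inflammatory, CSF1 receptor ligand, C1 protease, cholangiocyte and hepatocyte lists had higher means in fasted GFP livers.

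Partners of the markers in the same pathways were measured from lists made for this purpose. Csf1, the main ligand of CSF1R, averaged 2.04 FPKM and rose with refeeding over the 4 genotypes (log2 change 0.43 ± 0.06, adjusted p = 7.37e-05). It also rose in refed GFP livers taken alone (0.66 ± 0.15, 0.0302). Il34, the other ligand, averaged 1.15 FPKM and rose over the 4 genotypes (0.25 ± 0.08, 0.0224). With FoxO1 loss neither was called, at 0.13 ± 0.06 for Csf1 and 0.11 ± 0.08 for Il34. Of the protease genes that complete the C1 complex, C1ra averaged 99.6 FPKM and C1s 159.6 FPKM, with ranges over 24 libraries of 83.9 to 114.1 and 123.4 to 181.1 FPKM, and neither was called in any of the 16 comparisons. In refeeding over the 4 genotypes they were at 0.05 ± 0.03 (C1ra) and -0.08 ± 0.04 (C1s), on the log2 scale.

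Other genes of the same cells were read against all genes in refeeding over the 4 genotypes, where 30.3% were called and 19.9% were called higher. Of 16 other Kupffer cell genes tested, 7 were called higher and 0 lower, among them Sdc3 (log2 change 0.45 ± 0.11, adjusted p = 0.00553), Cd163 (0.45 ± 0.15, 0.0291), Fcna, a ficolin of the lectin complement pathway (0.40 ± 0.12, 0.0161), and Clec1b (0.33 ± 0.10, 0.0143). Of 21 pan-macrophage genes 9 were called higher and 0 lower, among them the signalling adaptor Tyrobp (0.64 ± 0.17, 0.00771), the cathepsin gene Ctss (0.53 ± 0.18, 0.0301), Lyz2 (0.52 ± 0.18, 0.0326) and Aif1 (0.51 ± 0.15, 0.0136). The calls were not limited to macrophages: 6 of 13 sinusoidal endothelial genes and 7 of 10 stellate and fibroblast genes were called higher, with medians of 0.26 and 0.38 against 0.54 for the 10 markers, and 0 of 8 hepatocyte genes were called. Summed endothelial levels were 81.3 to 120.2 FPKM in Cre refed and 32.3 to 66.2 FPKM in Cre fasted livers, and summed stellate levels were 139.0 to 171.9 and 67.2 to 103.5 FPKM in the same groups. Endothelial sums of refed and fasted livers overlapped in the other genotypes, and the KO mean was lower when refed (76.3 against 87.7 FPKM). Stellate sums overlapped in GFP and KO livers but not in WT livers (140.4 to 174.5 FPKM refed and 114.8 to 124.7 FPKM fasted). The part of these cells in the change of the markers was not tested. With FoxO1 loss over both models, 0 of 16 other Kupffer cell genes and 0 of 21 pan-macrophage genes were called, where 3.14% of all genes were, and 3 and 2 of them had an unadjusted p below 0.05, as did 15.7% of all genes.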

How the data were processed

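Liver RNA was sequenced with a stranded mRNA kit, per the labels' protocols. Each of 24 files lists 23746 loci with a value in FPKM and its lower and upper confidence limit, which the authors deposited. Per the submitters' processing notes, the tools were Cufflinks, Cuffdiff and HISAT2 on mm10; versions and the treatment of strand are not given in the sources used here. The 14 loci with a failed status in at least 1 library were dropped. Starts in the files count from 0 and were raised by 1.

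Taking each limit as 2 SD of a Poisson number, limits imply the fragments behind a value. Under 100 fragments, 40.7% to 45.2% of these numbers lay within 0.05 of a whole number (chance 10%), so they are estimates, used for depth only.

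Groups come from the sample titles. On the scale of log2(FPKM + 1), limma 3.58.1 in R 4.3.3 (eBayes with trend, 1 coefficient per group) tested genes with FPKM of at least 1 in at least 3 libraries: 10452 acute, 10375 constitutive and 10682 in the joint fit, which gave the means over 4 genotypes or pairs, GFP against WT and differences between models. P-values are two-sided with Benjamini-Hochberg adjustment across each fit's genes, and calls were made at 0.05. Log2 changes on this scale understate changes of low genes; folds are ratios of mean FPKM. Figures and sums used Python 3.11.15, pandas 2.3.3 and matplotlib 3.10.9. The fit was checked on simulated data.

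The 10 members and the 15 other lists (149 genes, of which 145 were found, including 4 by an older symbol) were chosen with earlier results of these data known. Genes were named by rule: all members, Foxo1, CSF1 receptor ligands, C1 protease genes, up to 4 called genes of a list by size of change, and the 10 genes most like the members. The sinusoidal endothelial, stellate and remaining lists are given as counts. Alternatives are in the closing section. Promoters were also to be searched for 1 further motif, which is not reported here.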

Additional observations from a re-analysis of the deposited data

How the results depend on the processing

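Over the 4 genotypes, the count of markers called higher with refeeding was 5, and 1 with no filter on low values, 3 with median-of-ratios scaling, 2 with array weights, 0 for calls at 0.01, 1 without the deeper acute libraries and 0 in the constitutive model alone; it stayed within 1.5 times of 5 with a pseudocount of 0.1 and in the acute model alone (6), the 2 single models having been added after seeing the data. Leaving out 1 library at a time gave 1 to 10 for this count, and 0 to 6 for refed against fasted Cre livers. In the other 14 comparisons the count stayed 0 under every alternative run. Timd4 missed the filter in some alternatives, with 11 for refed against fasted Cre livers where the other markers had 13. Of 2661 values of single markers, 178 changed sign, 177 of them where the main value was below its SE, and none was called before or after. The cause of these changes was not tested. Replicate numbers were not used to pair the samples in the main fits. Correlations of same-numbered libraries ran from -0.335 to 0.365. They cannot decide whether the numbers pair samples, as libraries with different numbers were not compared. With the replicate block 2 markers were called in refeeding over the 4 genotypes. Depth limits Marco, Timd4 and Cd68 most.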
